A study of Mus musculus with 2 samples.

Results

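Cluster 4 is 1 of 4 groups into which the authors sorted the barcoded spots of an H3K36M mouse tongue section, and 1 of 7 such clusters in the 2 sections of the study. It was taken as the authors defined it, and every gene of their cluster table was used. The cluster held 53037 of the 570807 transcript molecules of the section, counted by unique molecular identifier (UMI), or 9.29%. Both totals rest on a scale inferred from the deposited values, as described with the processing below. Of the 298 genes in the table, 295 had at least 1 UMI there, and the 2 sections' tables together list 879 genes. The spots came from a frozen section of a mouse of genotype Krt14-Cre(+); LSL-H3K36M, in which Cre under the keratin 14 promoter removes a stop cassette and lets the mutant histone H3 be made in Krt14-expressing epithelium. The other section came from a mouse of genotype Krt14-Cre(-); LSL-H3K36M, called WT, which carries the same silent cassette. Both mice had been treated with 4NQO, a carcinogen of the oral epithelium, and the labels do not give their ages. With 1 section per genotype there was no replicate, no spread between animals and no test. A spot can cover several cells or part of 1, so the cluster is a region and not a cell type.

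The tongue surface is a stratified squamous epithelium. Its basal cells make keratins 5 and 14, its suprabasal cells make keratins 4 and 13 and, on the filiform papillae, hair-type keratins, loricrin and other cornified envelope proteins. Keratins 7 and 19 are filament proteins best known from simple and glandular epithelia such as ducts, and lactoferrin (Ltf) and prostate stem cell antigen (Psca) are a secreted iron-binding protein and a small lipid-anchored surface protein made by several glandular and mucosal epithelia. Annexin A1 (Anxa1) is a calcium-dependent membrane-binding protein with anti-inflammatory activity that is abundant in squamous epithelium.

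The deposited averages were converted to UMIs and are given as UMIs per 10000 UMIs of the cluster, called the rate. Intervals in parentheses are at 95% and cover counting error only. Clusters 1, 2 and 3 held 17291, 306551 and 193928 UMIs, so that sums over these clusters rest mostly on clusters 2 and 3, and cluster 1 gives the widest intervals. The median listed gene had 46.0 UMIs in cluster 4, against 16, 290 and 190 in clusters 1 to 3, and 33 genes had 10 or fewer in cluster 4. Every listed gene reached a deposited average of 1 in at least 1 cluster, which is a rate of 7.24 and corresponds to 39 UMIs in cluster 4. The listed genes made up 32.9% of the UMIs of cluster 4, and the other 67.1% came from genes with no value in the table. How many spots the cluster holds was not analysed here.

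The 5 markers given for the region were all higher in cluster 4 than in clusters 1, 2 and 3, singly and together. These are the values by which the region was named, and Psca, Krt7 and Krt19 have values only because they were high there, so they describe the region and do not support its name. A gene was called higher where its rate was at least 2 times that of the comparison and the interval of the ratio lay above 1, and lower where the ratio was at most 0.5 with an interval below 1. The clusters were drawn from the same counts, so that these are descriptions of the cluster and not tests. Ltf, Psca, Krt7 and Krt19 had rates of about 1 or less in clusters 2 and 3.

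Ltf (chromosome 9, 111019271 to 111042767, plus strand, GRCm38) was counted 211 times in cluster 4 and 14, 33 and 10 times in clusters 1, 2 and 3. Its rate was 39.8 (34.6 to 45.5) in cluster 4, against 8.10, 1.08 and 0.516, and 36.1 times (26.9 to 49.3) that of clusters 1 to 3 together. It was the eighth most abundant listed gene of the cluster. Psca (chromosome 15, 74714839 to 74717069, plus strand) had 106 UMIs in cluster 4 and 7, 15 and 10 in clusters 1 to 3, a rate of 20 (16.4 to 24.2) against 4.05, 0.489 and 0.516, and a ratio of 32.3 (21.6 to 49.6). Krt7 (chromosome 15, 101411043 to 101430313, plus strand) had 74 UMIs against 3, 14 and 7, a rate of 14 (11 to 17.5) against 1.74, 0.457 and 0.361, and a ratio of 30.1 (18.8 to 49.9). Krt19 (chromosome 11, 100140810 to 100148665, minus strand) had 49 UMIs against 3, 7 and 3, a rate of 9.24 (6.83 to 12.2) against 1.74, 0.228 and 0.155, and a ratio of 36.8 (19.7 to 73.9). By abundance among the listed genes of cluster 4, Psca ranked 29, Krt7 66 and Krt19 137. In all 4 of these genes cluster 1 was the second highest, and none was in the WT table.

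Against cluster 1 the ratios were much smaller and less certain, 4.91 (2.86 to 9.14) for Ltf, 4.94 (2.31 to 12.6) for Psca, 8.04 (2.65 to 39.9) for Krt7 and 5.32 (1.72 to 26.7) for Krt19. With equal weight to clusters 1, 2 and 3 the ratios to the rest were 12.3, 11.9, 16.4 and 13.1 in the same order. Psca, Krt7 and Krt19 were listed through cluster 4 only, that is, their average reached 1 in no other cluster, and such a gene had to be high there to have a value at all. Ltf also reached the limit in cluster 1, with 14 UMIs where 13 were needed.

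Anxa1 (chromosome 19, 20373428 to 20390944, minus strand) had another pattern, since it was counted in every cluster. It had 449 UMIs in cluster 4 and 22, 250 and 81 in clusters 1 to 3, and its rate of 84.7 (77.0 to 92.9) stood against 12.7, 8.16 and 4.18. The ratio was 12.4 (10.8 to 14.3) to the rest together and 6.65 (4.34 to 10.7), 10.4 and 20.3 to clusters 1, 2 and 3. Anxa1 was second in abundance in cluster 4. In the WT section, whose table was scaled separately, its rates were 46.7, 40.3 and 16.8 in clusters 1 to 3, all below cluster 4 and above the other H3K36M clusters.

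**Figure D1:**
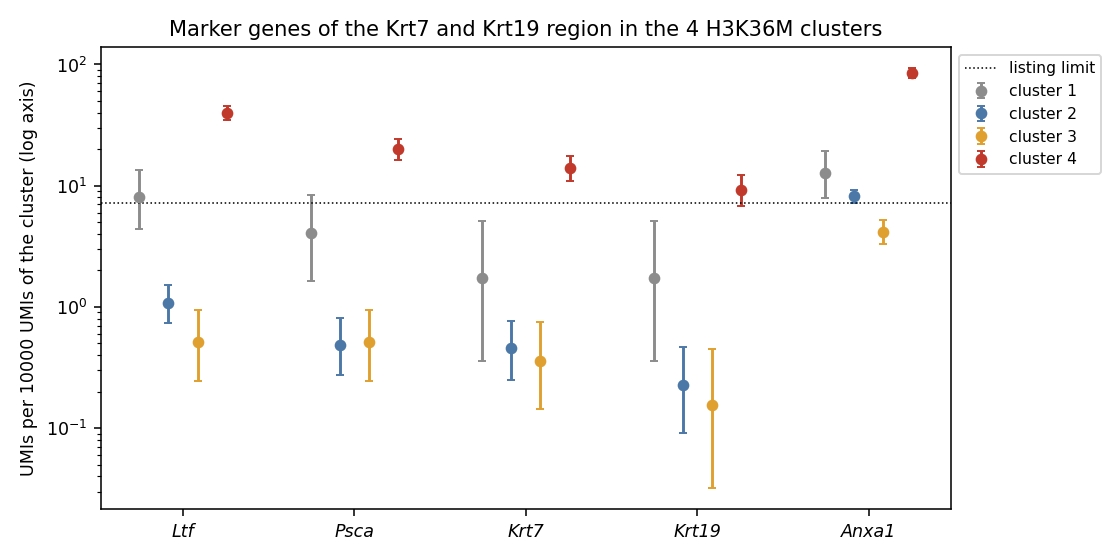
Rates of the 5 markers (UMIs per 10000 UMIs, log axis) in the 4 H3K36M clusters, as points with 95% counting intervals and a dotted line at the listing limit of 7.24. Cluster 4 is highest for every marker, from 9.24 for Krt19 to 84.7 for Anxa1, and cluster 1 is next.

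The 250 bases before the RefSeq transcription start (GRCm38.p6) are shown for a pair of genes high in the cluster, Ltf and Krt7. They are also shown for a pair of squamous genes that were low there, Krt13 and Lor. The windows were not aligned with each other. Krt7 lies on chr15:101412153-101412402 (plus strand), inside the span that GENCODE gives the gene, Ltf on chr9:111019042-111019291 (plus), Krt13 on chr11:100121567-100121816 (minus) and Lor on chr3:92083143-92083392 (minus). Psca and Krt19 are named only. Capitals mark 4 motifs searched on both strands, the TATA box (letters TATAAA), the CCAAT box (named by its letters, and read as ATTGG from the opposite strand), the GC box (letters GGGCGG, or in reverse CCGCCC) and the AP-1 site (letters TGANTCA), and no matches shown overlap.
Ltf: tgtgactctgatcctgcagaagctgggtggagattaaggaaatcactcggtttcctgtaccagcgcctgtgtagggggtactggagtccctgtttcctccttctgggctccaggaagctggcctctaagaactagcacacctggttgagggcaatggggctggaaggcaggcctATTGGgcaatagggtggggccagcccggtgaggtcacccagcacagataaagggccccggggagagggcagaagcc
Krt7: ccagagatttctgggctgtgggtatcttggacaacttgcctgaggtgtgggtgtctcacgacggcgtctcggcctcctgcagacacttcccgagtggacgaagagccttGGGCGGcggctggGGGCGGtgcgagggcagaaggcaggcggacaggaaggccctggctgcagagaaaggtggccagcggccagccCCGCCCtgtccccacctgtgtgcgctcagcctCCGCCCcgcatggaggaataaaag
Krt13: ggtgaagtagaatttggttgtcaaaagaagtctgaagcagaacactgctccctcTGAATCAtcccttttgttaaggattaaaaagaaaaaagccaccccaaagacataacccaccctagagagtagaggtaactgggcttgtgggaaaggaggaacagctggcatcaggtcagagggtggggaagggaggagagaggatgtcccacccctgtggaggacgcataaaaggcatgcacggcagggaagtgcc
Lor: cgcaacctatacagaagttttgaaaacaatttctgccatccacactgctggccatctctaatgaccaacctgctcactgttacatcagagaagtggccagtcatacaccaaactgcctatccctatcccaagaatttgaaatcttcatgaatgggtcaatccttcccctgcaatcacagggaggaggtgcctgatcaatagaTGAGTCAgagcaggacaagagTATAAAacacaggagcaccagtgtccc
The window of Ltf held 1 CCAAT box and that of Krt7 held 4 GC boxes, while those of Krt13 and Lor each held an AP-1 site and that of Lor also a TATA box. Of the 46 genes higher in cluster 4 than in the rest together, 36 had a window in the table, and GC boxes were in 55.6% of them and TATA boxes in 16.7%. Of the 82 lower genes 55 had a window, with 25.5% and 38.2%. The shares over the 214 listed genes with a window were 47.2% and 16.8%, and over all 27025 windows 32.9% and 13.0%. The AP-1 letters were in 25.0% of the windows of higher genes (9 genes, among them Cldn4, Emp1, Anxa2, Ecm1 and Ezr) and in 18.2% of those of lower genes (10 genes), against 13.6% of listed genes and 6.87% of all windows, and the CCAAT letters were in 36.1%, 36.4%, 33.2% and 34.5%. These are matches of letters, not sites at which binding was measured.

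By abundance cluster 4 was led by keratins of stratified epithelium. Its 20 most abundant listed genes held 4611 UMIs, 8.69% (8.46 to 8.94) of the cluster, and 6 of them were keratins and 4 ribosomal protein genes. In order they were Krt14, Anxa1, Krt13, Krt6a, Gsto1, S100a6, Lgals7, Ltf, Actg1, Krt4, Krt16, Sfn, Rpl5, Rpl23, Krt17, Krtdap, Ly6d, Eef1a1, Rpl4 and Rplp1. The order is by UMIs and was not corrected for transcript length. Of these 20 genes, 11 were also among the 20 most abundant listed genes of cluster 1, 9 of cluster 2 and 9 of cluster 3. Against the rest, 5 of the 20 were higher (Krt14, Anxa1, Gsto1, S100a6 and Ltf), 4 were lower (Krt13, Krt4, Krtdap and Eef1a1) and 11 were neither. Among all listed genes, 15.4% were higher and 27.5% lower.

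Krt14 (chromosome 11, 100203162 to 100207548, minus strand), the basal keratin whose promoter drives Cre, led the cluster. It had 572 UMIs there and 74, 1373 and 899 in clusters 1 to 3. The rate was 108 (99.2 to 117), against 42.8, 44.8 and 46.4, a ratio of 2.38 (2.17 to 2.61). The other 3 clusters lay close together, and the WT clusters stood at 82.3, 92.8 and 73.9. Krt5, the partner of Krt14 in basal cells, did not share this. Its rate was 24.5 (20.5 to 29.1) in cluster 4 and 23.7, 25.9 and 19.9 in clusters 1 to 3, a ratio of 1.04 (0.861 to 1.25). Of the 14 basal keratinocyte genes in the list, 5 had values, 1 of which was higher (Krt14), 1 lower (Perp, a desmosomal protein, 0.495) and 3 neither, with a median log2 ratio of -0.21 against -0.48 over all 298 genes. Of those 298, 15.4% were higher and 27.5% lower. The 5 basal genes took 1.62% of the UMIs of cluster 4 and 1.18%, 1.16% and 1.17% of clusters 1 to 3, but without Krt14, which gave 572 of their 859 UMIs in cluster 4, the shares were 0.541% in cluster 4 and 0.752%, 0.709% and 0.706% in clusters 1 to 3, so that cluster 4 was then the lowest. Krt15, another basal keratin, had rates of 29.5, 16.4, 15.9 and 12.6 (9.79 to 16) in clusters 1 to 4.

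The differentiation keratins were low. Krt13 had 388 UMIs and a rate of 73.2 (66.1 to 80.8) in cluster 4, against 143, 297 and 406 in clusters 1, 2 and 3, a ratio of 0.220 (0.198 to 0.243). Krt4, its partner, had a rate of 33.8 (29.0 to 39.1) against 79.2, 133 and 203 and a ratio of 0.214 (0.184 to 0.248). The hair-type keratins of the papillae were almost without counts. Krt36 had 1 UMI in cluster 4 against 3, 53 and 395, and Krt84 had 0 UMIs against 0, 40 and 207, where 3 UMIs would be a rate of 0.566 and the rate was at least 8.43-fold lower than in clusters 1 to 3 together. Both genes had values only because they reached the listing limit in another cluster.

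Of the keratins of stressed and wounded epithelium, Krt6a, Krt16 and Krt17 lay between these. Krt6b was lower against clusters 1 to 3 together, with a deposited log2 fold change of -1.68. Krt6a had a rate of 64.3 (57.7 to 71.5) against 37.6, 85.5 and 114 and Krt16 one of 33.6 (28.8 to 38.9) against 17.4, 38.0 and 77.2, so both were above cluster 1 and below cluster 3 in value. Krt17 had 28.3 (23.9 to 33.2) against 13.9, 12.5 and 23.7, higher than clusters 1 and 2 by 2.04 and 2.26 times. Krt6a and Krt6b are near-identical copies, so how their reads divide is uncertain. Over the 16 listed keratins, 3 were higher (Krt14, Krt7 and Krt19), 7 lower and 6 neither, and together they took 4.19% of the UMIs of cluster 4, close to the 4.10% of cluster 1 and below the 7.08% and 10.0% of clusters 2 and 3. Among all listed genes, 15.4% were higher and 27.5% lower.

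**Figure D2:**
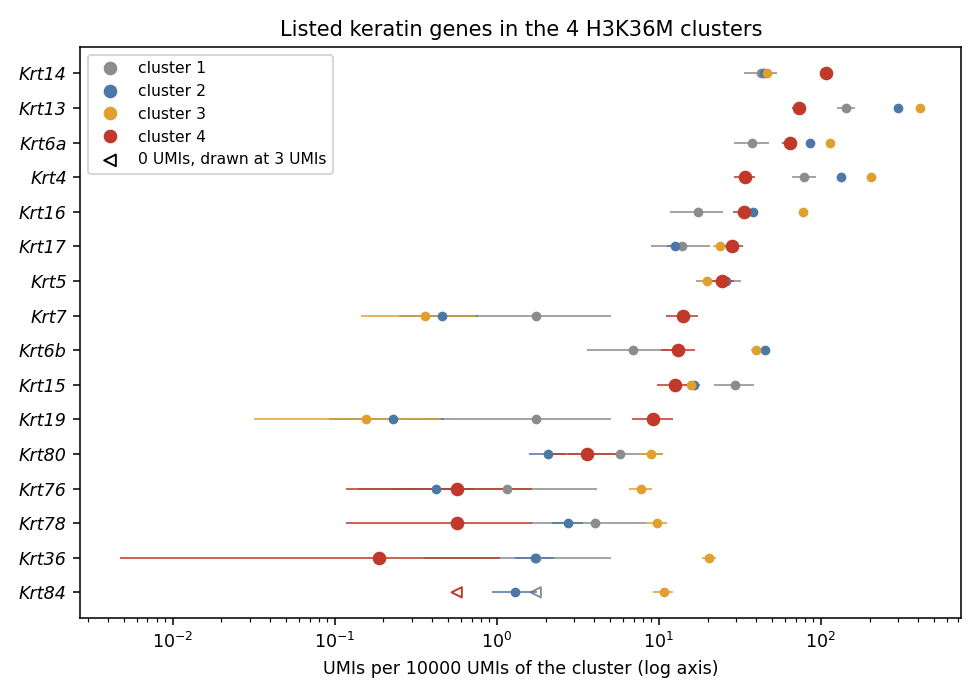
Rates of the 16 listed keratins (UMIs per 10000 UMIs, log axis) in each H3K36M cluster, with 95% counting intervals and open triangles for 0 UMIs drawn at 3 UMIs. Cluster 4 is highest for Krt14, Krt17, Krt7 and Krt19 and lies below clusters 2 and 3 for Krt13, Krt4 and Krt36.

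Against clusters 1 to 3 together, 46 of the 298 listed genes (15.4%) were higher in cluster 4, 82 (27.5%) were lower and 170 were neither. The higher genes had 35 to 572 UMIs in the cluster, and 18 of them had under 50. Of the 30 genes listed through cluster 4 only, 28 were higher, and such genes had to be high there. Among the 268 genes that reached the limit in another cluster, 18 (6.72%) were higher and 82 (30.6%) lower. These 82 are all of the lower genes. A gene below the limit in cluster 4 had a value only because it was high in another cluster. The listing thus favours lower calls and low medians as well. At the edge of the fold limit, Klk13 was just inside with 2.02 and Tagln2 just outside with 1.98.

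Singly, 33 genes (11.1%) were higher and 47 (15.8%) lower than in cluster 1. Against cluster 2 the counts were 48 (16.1%) higher and 90 (30.2%) lower, and against cluster 3 they were 52 (17.4%) higher and 70 (23.5%) lower. Higher than in each of the 3 clusters were 25 genes, 20 of them listed through cluster 4 only. The other 5 were Ltf, Anxa1, S100a6, Gsto1 and Krt14. Lower than in each were 27 genes, among them Krt4, Lor, Mt4, Serpinb12, Lce3c, Defb4 and Mt3.

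**Figure D3:**
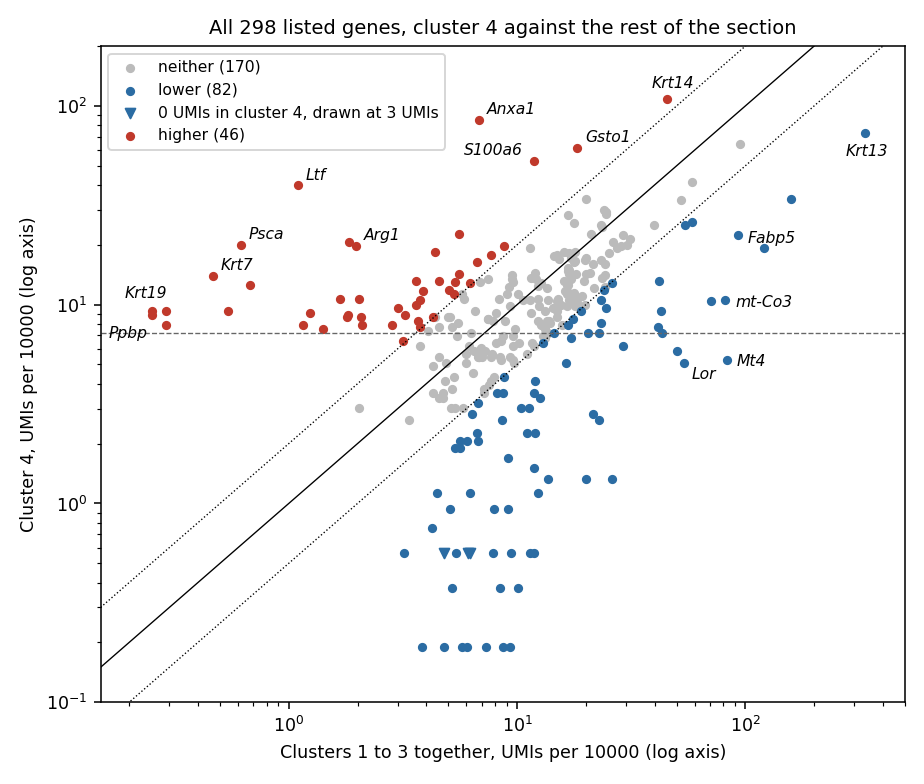
Rate of each of the 298 listed genes in cluster 4 against clusters 1 to 3 together (UMIs per 10000 UMIs, both log axes). The solid line marks equal rates, dotted lines a 2-fold difference and the dashed line the listing limit in cluster 4, and 46 genes lie above and 82 below the 2-fold lines.

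Other genes with high ratios beside the markers had various roles. The 3 given here, Aldh1a3, Vmp1 and Arg1, were listed through cluster 4 only. They had to be high there to have a value at all. Aldh1a3, which makes retinoic acid, had 42 UMIs in cluster 4 and 3, 10 and 2 in clusters 1 to 3, a ratio of 27.3 (14.9 to 53.1). Vmp1, an endoplasmic reticulum protein needed for autophagy, had 109 against 7, 55 and 33, a ratio of 11.2 (8.43 to 14.9). Arg1, the arginine-degrading enzyme arginase 1, had 105 against 9, 48 and 45, a rate of 19.8 (16.2 to 24.0) against 5.21, 1.57 and 2.32 and a ratio of 10.0 (7.58 to 13.3). Of these 3 genes, Arg1 was also common in WT cluster 1, at 15.6, while the WT rates of Vmp1 were 1.51, 2.25 and 2.34 and those of Aldh1a3 were 3.69, 1.20 and 0.275.

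The simple and ductal epithelium list had values for 4 of its 18 genes, Krt7, Krt19, Psca and Cldn4, a tight junction protein. All 4 were higher, and all were listed through cluster 4 only. Of the 30 genes listed in that way 28 were higher, so this count largely follows from the listing. Cldn4 had 48 UMIs against 5, 30 and 29 and a ratio of 7.32 (4.93 to 10.8). The 4 genes took 0.522% of the UMIs of cluster 4, 277 in number, and 0.104%, 0.0215% and 0.0253% of clusters 1 to 3. By the same listing their share had to be highest in cluster 4. The other 14 genes of the list, Krt8, Krt18 and Epcam among them, have no value in the table. Of the 25 salivary secretory genes, Ltf alone had a value.

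Annexins and S100 proteins, calcium-binding proteins many of which act at membranes, were listed without S100a8 and S100a9, which stand with the stress or wound and neutrophil genes. Of the 7 members with values, 5 were higher, 0 lower and 2 neither, with a median log2 ratio of 2.08 against -0.48 over all listed genes, and 3 of the 5 (Anxa1, Anxa2 and S100a6) reached the limit in another cluster. Among all listed genes, 15.4% were higher and 27.5% lower. S100a6 had 279 UMIs in cluster 4 and 37, 338 and 241 in clusters 1 to 3, a rate of 52.6 (46.6 to 59.2) against 21.4, 11 and 12.4 and a ratio of 4.42 (3.82 to 5.10). Anxa2 had a rate of 18.5 (15.0 to 22.5) against 13.9, 4.37 and 3.56. It was thus higher than clusters 2 and 3 and not called against cluster 1, with a ratio of 1.33 (0.845 to 2.18). S100a10, the usual partner of Anxa2, had 46 UMIs against 5, 70 and 18 and a ratio of 4.83 (3.32 to 6.95), while S100a14 had 0.785 (0.572 to 1.05). The group took 1.88% of the UMIs of cluster 4 and 0.682%, 0.441% and 0.483% of clusters 1 to 3. With S100a8 and S100a9, both lower against the rest, 5 of 9 were higher and 2 lower, the median log2 ratio was 1.46, and the shares were 1.96% in cluster 4 and 0.734%, 0.878% and 0.504% in clusters 1 to 3.

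**Figure D4:**
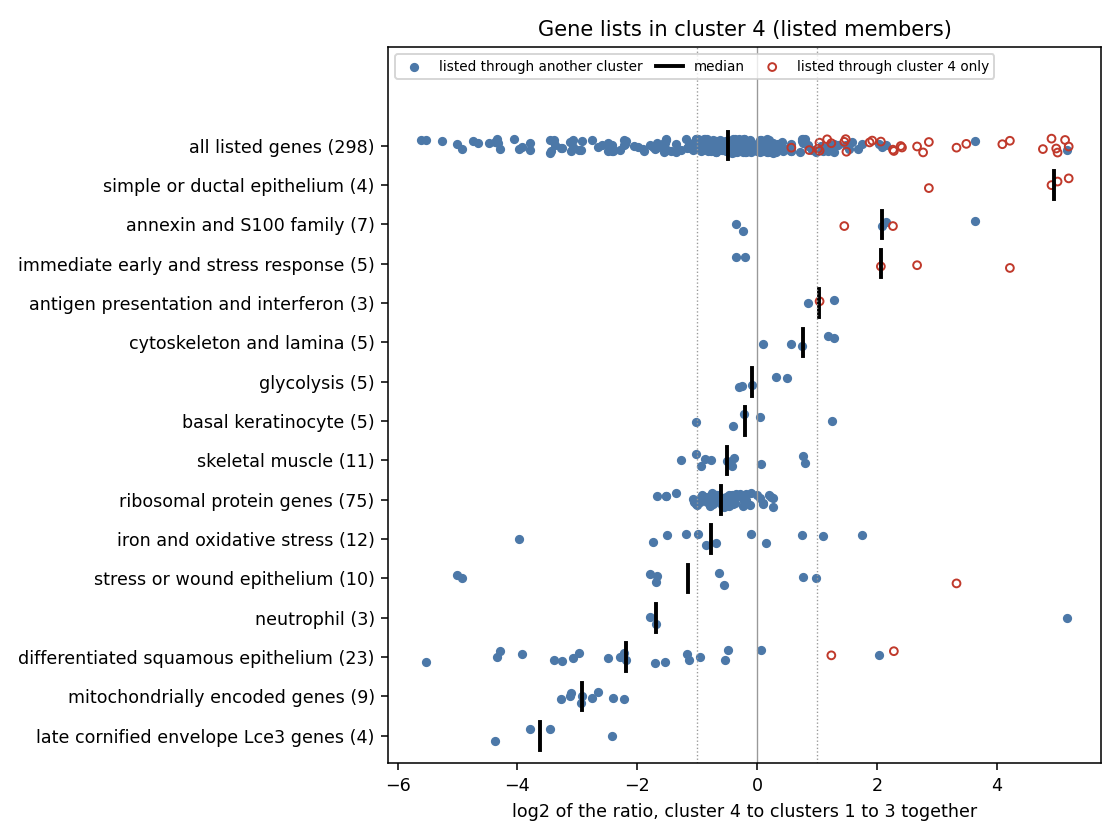
Log2 ratio of cluster 4 to clusters 1 to 3 together for the listed members of the gene lists shown, with genes at 0 UMIs placed at 3 UMIs, black bars at the medians and dotted lines at a 2-fold difference. Open circles are genes listed through cluster 4 only, and the medians run from 4.96 for simple or ductal epithelium to -3.63 for the Lce3 genes.

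Of the 12 listed iron and oxidative stress genes, 2 were higher, 4 lower and 6 neither, near the 15.4% higher and 27.5% lower of all listed genes. Gsto1, a glutathione transferase, had 326 UMIs against 27, 683 and 238, a rate of 61.5 (55.0 to 68.5) against 15.6, 22.3 and 12.3 and a ratio of 3.36 (2.95 to 3.81). Fth1 and Mt1, for ferritin heavy chain and a metallothionein, had ratios of 1.69 (1.35 to 2.09) and 0.927 (0.736 to 1.15). The metallothioneins Mt3 and Mt4 were low. Mt3 had 1 UMI against 4, 328 and 148, and Mt4, the form of stratified epithelium, 28 against 46, 2501 and 1761, a ratio of 0.0635 (0.0421 to 0.0918). Metallothionein genes are close copies of each other, and their counts are uncertain to that extent.

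Immediate early and stress genes had values for 5 of 20 members. Ier3, Dusp1 and Nupr1 were higher and Hspb1 was among the 2 that were neither, beside 15.4% higher over all listed genes. Nupr1, a small stress-induced nuclear protein, had 67 UMIs against 11, 7 and 17, a rate of 12.6 (9.79 to 16) against 6.36, 0.228 and 0.877. It was not called against cluster 1, with a ratio of 1.99 (1.04 to 4.17). Ier3 had 57 UMIs and Dusp1, a phosphatase of MAP kinases, 46, with ratios of 6.40 (4.50 to 9.03) and 4.20 (2.90 to 5.98). All 3 were listed through cluster 4 only, and the median log2 ratio of the list, 2.07, was -0.28 for its members listed elsewhere.

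Of 5 cytoskeleton and lamina genes with values, Lmna, for nuclear lamin A, and Tmsb4x, an actin-binding peptide, were higher with 2.26 (1.81 to 2.80) and 2.43 (1.84 to 3.18), and 3 were neither, Actb among them with 1.07 (0.883 to 1.30). The glycolysis list had 5 members with values, and all 5 were neither, with a median log2 ratio of -0.09. Of 3 antigen presentation genes, H2-K1 and B2m were higher, with 2.45 (1.91 to 3.10) and 2.06 (1.44 to 2.90), and H2-D1 was neither. B2m was listed through cluster 4 only. H2-K1 had its highest rate in cluster 1, at 30.7, against 16.4 (13.1 to 20.2) in cluster 4 and 5.87 and 5.88 in clusters 2 and 3. Of the 2 replacement histone genes with values, H3f3a was lower with 0.477 (0.275 to 0.775) and H3f3b neither with 1.35 (1.03 to 1.74). H2-K1 and H2-D1, and the coding parts of H3f3a and H3f3b, are similar enough for reads to be divided between them. Beside all counts in this paragraph, 15.4% of all listed genes were higher and 27.5% lower.

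Genes of squamous differentiation and cornification took the smallest share of the UMIs in cluster 4. Of 23 differentiated squamous genes with values, 16 were lower, 3 higher (Emp1, Ecm1 and Cstb) and 4 neither against clusters 1 to 3 together, where 27.5% of all listed genes were lower and 15.4% higher, with a median log2 ratio of -2.19. Singly, 6 of the 23 were lower than in cluster 1, 12 than in cluster 2 and 18 than in cluster 3. Of all listed genes, 15.8%, 30.2% and 23.5% were lower in the same comparisons. The group took 2.36% of the UMIs of cluster 4, against 3.79%, 6.25% and 11% in clusters 1 to 3. Lor, for loricrin, had 27 UMIs against 26, 783 and 1964, a rate of 5.09 (3.35 to 7.41) against 15.0, 25.5 and 101 and a ratio of 0.0951 (0.0625 to 0.139). The late cornified envelope genes Lce3 were lower in 4 of 4, with 11 UMIs in all and 0 of Lce3f, which was at least 11-fold lower than in clusters 1 to 3 together. They too are close copies. Serpinb12, a protease inhibitor of squamous epithelium, had 2 UMIs against 5, 256 and 264, and Bpifa5 had 0 against 1, 141 and 175 and was at least 10.8-fold lower. Lce3f, Serpinb12 and Bpifa5 had values only because they reached the listing limit in another cluster. Of the 3 higher members, Ecm1 is an extracellular matrix protein, Emp1 a membrane protein and Cstb a cysteine protease inhibitor, and Ecm1 had rates of 17.9, 1.76, 10.4 and 22.6 (18.8 to 27.1) in clusters 1 to 4.

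Of 10 stress or wound genes with values, 5 were lower, 1 higher (Arg1) and 4 neither, beside 27.5% lower and 15.4% higher over all listed genes, with a median log2 ratio of -1.15. Arg1 was listed through cluster 4 only. Against cluster 1 alone, 1 of the 10 was lower and 2 were higher, near the 15.8% lower and 11.1% higher of all listed genes. The lower genes included Defb4, a beta-defensin with 1 UMI against 4, 133 and 177, and Sprr1b, with 1 against 3, 117 and 177. S100a8 and S100a9, subunits of calprotectin that neutrophils and stressed keratinocytes make, had opposite places against different clusters. S100a8 had a rate of 5.09 (3.35 to 7.41) in cluster 4 against 3.47, 26.5 and 1.44, so it was lower than cluster 2 (0.192) and higher than cluster 3 (3.53). S100a9 did the same, with 0.176 and 4.88.

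Markers of other cell types were looked for because a spot can hold them. Of 12 neutrophil genes, Ltf, S100a8 and S100a9 had values, and the last 2 were lower against the rest, at 27 and 16 UMIs against the 211 of Ltf. Of 6 platelet genes, Ppbp alone had a value, and it was higher, with 47 UMIs in cluster 4 against 1, 7 and 5 and a ratio of 35.3 (18.8 to 71.1). Of 9 nerve and Schwann cell genes, Calcb, which codes for a calcitonin gene-related peptide and has a close copy in Calca, alone had a value, with 49 UMIs against 2, 6 and 7 and a ratio of 31.9 (17.6 to 61.2). Ppbp and Calcb were listed through cluster 4 only. Each had to be high there to have a value, so their ratios do not show platelets or nerve in the region. The macrophage, lymphocyte, fibroblast, endothelium and erythroid lists had 0 members with values. The part of such cells in the results was not tested, and fewer cells of a type cannot be told apart from less RNA per cell.

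Skeletal muscle, which lies under the tongue epithelium, had 11 of 20 genes with values. Against the rest, 0 were higher, 2 lower and 9 neither, beside 27.5% lower over all listed genes. Against cluster 1 alone 8 were lower, beside 15.8% of all listed genes. They took 0.562% of the UMIs of cluster 4 and 1.61%, 0.895% and 0.395% of clusters 1 to 3. Mb, for myoglobin, had rates of 22.0, 11.4, 6.19 and 7.54 (5.39 to 10.3) in clusters 1 to 4.

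The mitochondrially encoded genes were lower in 9 of 9 against clusters 1 to 3 together, beside 27.5% of all listed genes, with a median log2 ratio of -2.92. Singly, 5 of the 9 were lower than in cluster 1, 9 than in cluster 2 and 7 than in cluster 3. Of all listed genes, 15.8%, 30.2% and 23.5% were lower in the same comparisons. They took 0.609% of the UMIs of cluster 4 against 1.54%, 6.09% and 1.38% of clusters 1 to 3. Ribosomal protein genes were lower in 10 of 75 and neither in 65, a smaller share lower than the 27.5% of all listed genes. They took 9.55% of the UMIs against 10.9%, 15.7% and 11.2%. The part of RNA quality in the results was not tested. Of 4 listed kallikreins, 2 were lower, 1 higher and 1 neither, beside 27.5% lower and 15.4% higher over all listed genes. The higher one, Klk13, was listed through cluster 4 only.

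**Figure D5:**
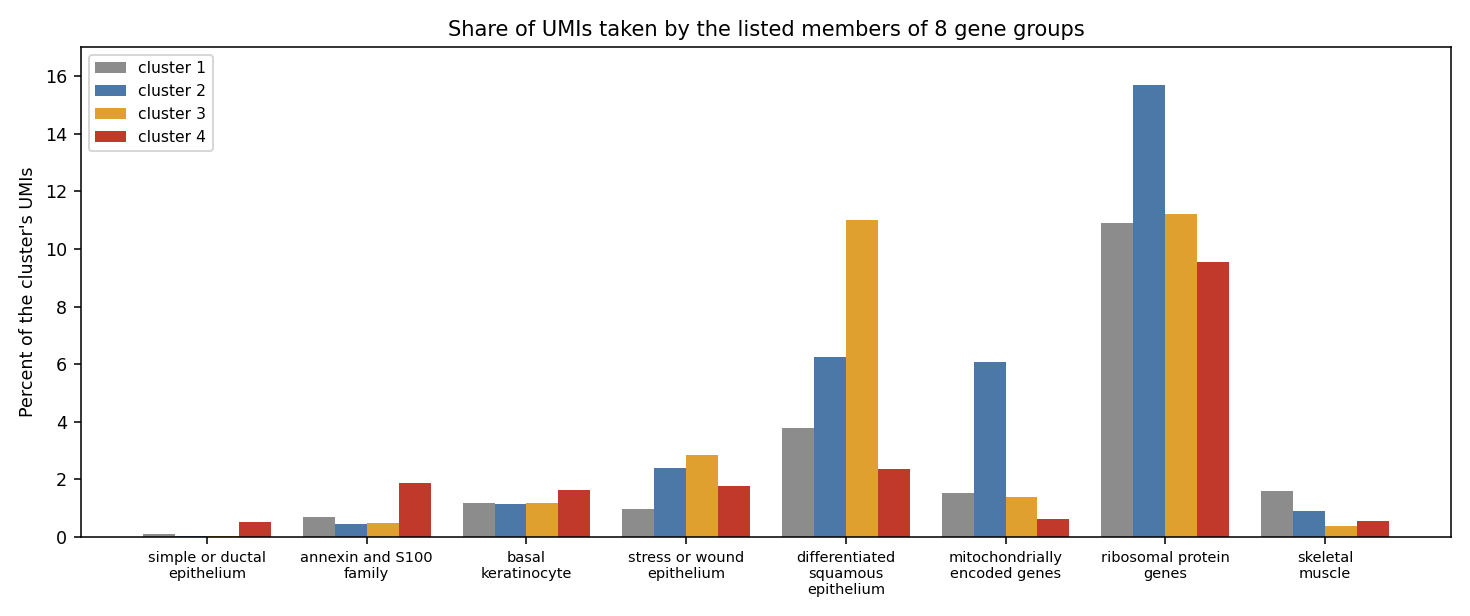
Percent of the UMIs of each H3K36M cluster taken by the listed members of 8 gene groups. Cluster 4 has the highest share of the simple or ductal group (0.522%), of annexin and S100 genes (1.88%) and of basal keratinocyte genes (1.62%, and 0.541%, the lowest of the 4, without Krt14), and the lowest of the squamous (2.36%), mitochondrial (0.609%) and ribosomal (9.55%) groups. The simple or ductal members were all listed through cluster 4 only, so their share had to be highest there.

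Cluster 1 was the smallest of the section, and clusters 2 and 3 held 96.7% of the UMIs of the pool against which genes were called. A gene high in cluster 2 or 3 could therefore hardly be called higher in cluster 4, while one high in cluster 1 could, and nothing is read from how often each cluster came next. Of the 46 higher genes, cluster 4 itself was highest for 42. Cluster 1 was above it for the other 4, which were H2-K1, Snrnp70 (a protein of the U1 splicing particle, 13.9 against 9.62), Rsrp1 and a predicted gene, the last 3 singled out after their values were seen. The intervals of cluster 1 were wide, and 5 genes at least 2 times higher in cluster 4 than in cluster 1 were not called because their intervals reached 1.

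Beside the WT section, 35 of the 46 higher genes and 81 of the 82 lower genes had WT values. The tables were scaled separately and the sections differ in depth, so that levels are given side by side with no fold. Of the 35, cluster 4 had a rate above all 3 WT clusters in 32 (91.4%) and within their range in 3, S100a11, Tmsb4x and B2m. Of the 81, it had a rate below all 3 in 76 (93.8%) and within their range in 5. Over all 284 genes in both tables, cluster 4 was above in 76 (26.8%), below in 129 (45.4%) and within in 79. The 35 and the 81 genes were picked by their rate in cluster 4, which is the value set beside WT here. Some of the 35 also had values only because that rate was high. Their shares above and below WT are therefore largely set by the choice, and nothing is read from them. The 11 higher genes outside the WT table included Ltf, Psca, Krt7, Krt19, Ppbp, Calcb and Nupr1, and a gene enters that table at a rate of 1.99 in at least 1 WT cluster. Krt6a, called neither against clusters 1 to 3 together, stood at 64.3 in cluster 4 against 168, 137 and 151 in the WT clusters, and Krt16, also neither there but lower than in H3K36M cluster 3, at 33.6 against 135, 99.6 and 115. S100a8 stood at 5.09 against 202, 154 and 99.3.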

How the data were processed

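Visium data of 2 tongue sections, 1 per genotype, were used, with groups from the labels' genotype. The submitters' processing notes name Space Ranger and the build GRCm38 (mm10). Its version, and how spots were clustered, were not found in the notes or labels. Per the file headers, the deposited cluster table holds for each gene and cluster an average, which is a signal, with a log2 fold change and p-value. The deposited p-values compare spots of 1 section and support nothing here. They entered only as an alternative setting. The deposited metrics table holds counts of reads and spots, signal values per spot and quality values as a fraction, and shows 252 spots under tissue and a median of 763.5 UMIs in the H3K36M section. Spots under tissue held 6.93% of the reads in that section and 36.2% in the WT section. The median genes per spot were 596.5 and 1919.5.

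The averages of a cluster were whole multiples of 1 step (within 0.01) and were read as UMIs over summed size factors, and the deposited log2 fold changes fixed the number of UMIs. The scale was the smallest multiple of 0.5 that made the totals whole, 1380.5 in the H3K36M section. This differs from the metrics' median, so the clustered spots may not be those of the metrics, and totals and rates rest on this reading. The ratios do not, since ratios of the deposited averages are the same.

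Rates had exact Poisson intervals and ratios exact conditional intervals. In list medians a gene at 0 UMIs in cluster 4 was set at 3 UMIs. The calculation was tested on simulated data. Of the 298 identifiers, 298 matched GENCODE M21, 297 with the same symbol, and promoter windows came from RefSeq on GRCm38.p6. Named were the markers, the 20 most abundant genes, the 20 with the highest and 12 with the lowest ratios (at least 20 UMIs in cluster 4 and 100 elsewhere), up to 4 members of each of 21 gene lists with the most UMIs, and genes higher than in each cluster that were listed elsewhere. Other named genes, such as Klk13, Tagln2, Mt4, Lor, Cstb and Ezr, were chosen after their values were seen. The members and lists were chosen with earlier results of these data known. Alternatives were other folds, a minimum of 50 UMIs, genes listed elsewhere, other weights and denominators, and a deposited p-value under 0.05. The fold alone was added after seeing the data. Python 3.11, numpy 2.4.6, pandas 2.3.3, scipy 1.17.1 and matplotlib 3.10.9 were used.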

Additional observations from a re-analysis of the deposited data

How the results depend on the processing

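Of 154 recomputed values, 129 kept their direction and stayed within 1.5 times a count, or within the counting interval of a ratio, median or share. Part of the 129 could not change, since ratios of the deposited averages equal the main ratios by calculation. A minimum of 50 UMIs also left every count of higher and lower genes as it was. This minimum was not set on the counts of cluster 4 alone, where 18 of the 46 higher genes had under 50. It therefore did not check thin counts in cluster 4. The tally is therefore no measure of how firm the results are. A 4-fold limit gave 23 higher and 47 lower genes against the rest, 13 and 21 against cluster 1, 25 and 42 against cluster 2, and 24 and 42 against cluster 3. A 1.5-fold limit gave 130 lower genes against the rest and 139 against cluster 2. The setting of a deposited p-value under 0.05 gave 55 higher and 108 lower genes against the rest. Both counts are among the 129, though those p-values compare spots of 1 section. With genes listed through another cluster only, which leaves out 30 genes, the higher genes were 18 against the rest, 13 against cluster 1, 21 against cluster 2 and 25 against cluster 3. The median log2 ratio was then -0.28 for the immediate early list, which turned its sign, -1.67 for stress or wound genes and -1.15 for keratins. With equal weight to clusters 1 to 3, the ratios were 12.3 for Ltf, 11.9 for Psca, 16.4 for Krt7, 13.1 for Krt19 and 10.1 for Anxa1, since cluster 1 then counts more. The 10 most abundant genes held 5.93% of the UMIs and the 50 most abundant 14.5%. Without mitochondrially encoded and ribosomal protein genes the top 20 held 9.50% of the remaining UMIs. No paired analysis was possible because there is 1 section per genotype and no test was run. Depth limits cluster 1 most, where 3 UMIs are a rate of 1.74, and 33 genes had 10 or fewer UMIs in cluster 4.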
